A study of Mus musculus with 6 samples.

Results

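The expression of 10 melanocyte lineage genes was followed in cultured neonatal mouse cochleae with and without neomycin damage. They were chosen by symbol (Dct, Tyr, Tyrp1, Mitf, Pmel, Mlana, Kit, Ednrb, Slc45a2 and Oca2), all 10 were among the 24421 symbols of the count table, and 8 of them had enough counts to be tested. RNA-seq was performed on 3 control and 3 neomycin samples, and each sample was RNA from a pool of 6 to 8 cochlear explants of wild-type (WT) mice at postnatal day 2. The labels give 12 h of culture, 6 h in 1 mM neomycin (an aminoglycoside antibiotic toxic to hair cells) and another 5 days with 10 μM EdU, a label of newly made DNA. This protocol text stands with all 6 samples, although the treatment label of 3 of them reads control. Per the study's methods the explants were freed of the modiolus, the tectorial membrane and the stria vascularis primordium, the last of which houses most cochlear melanocytes. Any melanocyte RNA here thus came from cells left after dissection, and other cell types may add to the counts of the members. Nothing in the sources ties the samples to separate litters or days, so p-values measure the spread between these pools.

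Melanocytes arise from the neural crest, in part through Schwann cell precursors. Their precursors depend on the receptors Kit and Ednrb and on the transcription factor Mitf, which turns on the genes of pigment synthesis. In the cochlea the pigment cells become the intermediate cells of the stria vascularis, where they carry potassium channels needed for the endocochlear potential. Pigment is made in the melanosome, an organelle related to the lysosome, by the enzymes tyrosinase (Tyr), Tyrp1 and Dct on fibrils of Pmel.

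The samples held 50471116 to 66068108 counts. After neomycin, 14 of 15 hair cell genes tested were lower, and the list's median was -1.82 on the log2 scale. Across all 15988 genes tested, 4629 (29%) passed at an adjusted p under 0.05 in edgeR's quasi-likelihood test with Benjamini-Hochberg adjustment, 12.9% of genes tested higher and 16.1% lower. At a fold change threshold of 1.5 on top of that, 8.84% passed. All genes tested had a median log2 fold change of -0.0041.

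Mitf binds the sequence TCATGTG, the core of the M-box found upstream of pigment enzyme genes, and the windows that hold it are shown because the members that hold it are the pigment enzymes. RefSeq promoters (GRCm38.p6, the mm10 assembly, 250 bases before to 50 bases after each start) were matched for 7 of the members, Tyrp1, Kit, Mitf, Oca2, Tyr, Ednrb and Dct, as 10 promoters. The 7 letters were searched on both strands, and each window below reads 5′ to 3′ on the gene's strand with the match in capitals.
Tyrp1, chr4:80834155-80834183, plus strand: tggggagggagTCATGTGctgcctagtag
Tyr, chr7:87493517-87493545, minus strand: gaaaaagttagTCATGTGctttgcagaag
Dct, chr14:118052380-118052408, minus strand: tgcacttagggTCATGTGctaacaaagag
Dct, chr14:118052461-118052489, minus strand, match on the opposite strand: cttggctgggaCACATGAgcccaataaag
The match lay 47 bases before the RefSeq start in Tyrp1, 22 bases before it in Tyr, and 151 and 232 bases before it in Dct. Gene coordinates given below are those of GENCODE M21. There the Tyrp1 gene begins at 80834123, upstream of its window, so that match lies inside the gene as annotated. Of the 10 member promoters 3 hold the letters, and of all 32851 promoters 3.77% do. The 3 belong to Tyrp1, Tyr and Dct, and the promoters of Kit, Ednrb, Oca2 and Mitf do not hold the letters. The M-box is known from pigment enzyme genes, so these matches were to be foreseen and are not evidence of enrichment. A match is a description of letters and does not show binding.

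The members spanned a wide range of levels. Levels are given as CPM per kb of exon length (counts per 1000000 counts of the TMM-scaled library, divided by exon length). The length covers all exons of the gene in GENCODE M21, while the study counted reads by the UCSC mm10 annotation. Comparisons of level between genes are thus approximate. Pmel averaged 6.82 CPM per kb over the 6 samples, Kit 6.08 and Ednrb 5.38, all above the median of 4.57 over the genes tested. The ranges of these 3 genes over samples overlapped, at 6.13 to 7.95 for Pmel, 5.24 to 7.68 for Kit and 3.94 to 6.91 for Ednrb, so their order was within the spread. Oca2 followed at a mean level of 2.28 CPM per kb, below Ednrb in every sample, and its range of 1.96 to 2.59 overlapped that of Dct (mean 1.54, range 0.855 to 2.44). Mitf, at a mean level of 1.34 CPM per kb, lay within the range of Dct.

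The remaining 4 members were near the bottom of the scale. Slc45a2 had a mean level of 0.201 CPM per kb and Mlana 0.179, with overlapping ranges. Tyr had 0.0636 CPM per kb, above 1.89% of the genes tested, and Tyrp1 had 0.0231 CPM per kb, above 0.177% of them. The ranges of Tyr and Mlana overlapped, as did those of Tyr and Tyrp1. RNA for Pmel, the protein of the melanosome fibril, was thus at 6.82 CPM per kb in libraries where RNA for tyrosinase was at 0.0636 CPM per kb. Exons of Pmel overlap those of Dgka and Cdk2 on the other strand, so some of its reads could belong to those genes.

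**Figure D1:**
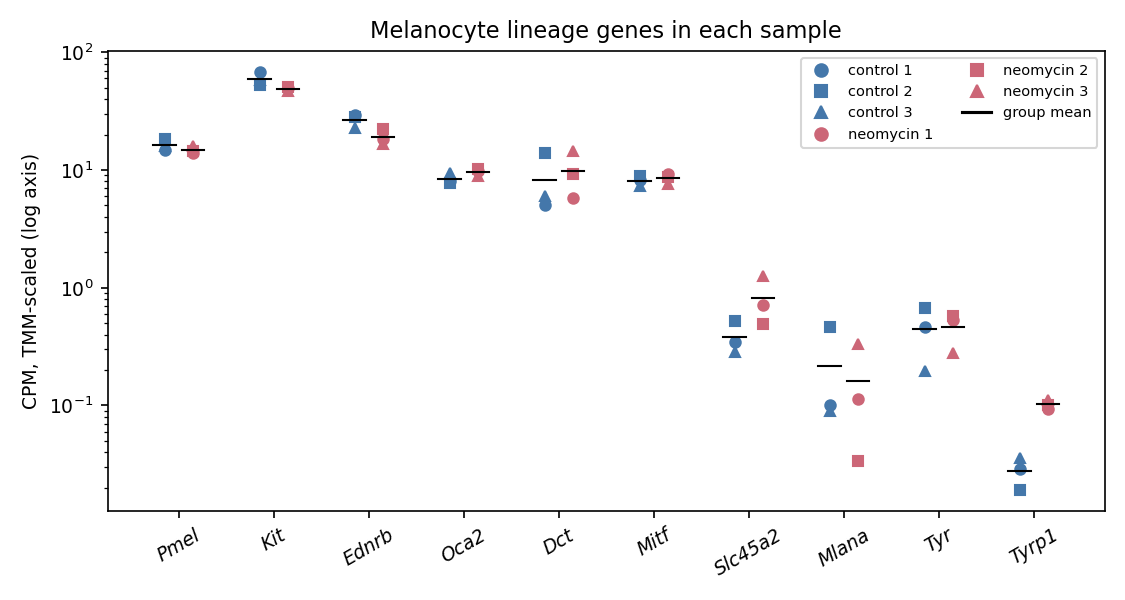
CPM of each of the 10 genes in each sample (log axis, TMM-scaled libraries), with control samples in blue, neomycin samples in red, 1 symbol per replicate number and a black bar at each group mean. Genes are ordered by mean CPM per kb, and the neomycin samples lie below all controls for Kit and Ednrb and above all controls for Tyrp1, whose counts were 1 to 6.

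The counts of lineage markers are given here as a description. All 7 members listed as melanocyte-restricted (Dct, Tyr, Tyrp1, Pmel, Mlana, Slc45a2 and Oca2) had counts in every sample. For Tyrp1 these were 1 to 6 counts and for Mlana 2 to 24. As these genes are members themselves, their counts do not test the lineage label. Other genes of the lineage, named after their values were seen, ranged from near 0 to well covered. Pax3, a neural crest and melanoblast transcription factor, had 0 to 11 counts per sample, and both Mc1r, the melanocortin receptor, and Gpr143, a receptor of the melanosome membrane, had 0 to 4. Trpm1, a channel gene controlled by Mitf, had 8 to 51 counts, which is more than Tyrp1, and Slc24a5, an ion exchanger needed for pigment, had 31 to 103. Foxd3, a neural crest factor also made by glia, had 141 to 355 counts, and Rab38, a small GTPase that brings enzymes to the melanosome, had 346 to 620. Genes of the retinal pigment epithelium, another tissue that makes pigment, ranged as widely. Rpe65, its retinoid isomerase, had at most 1 count per sample and Lrat, a retinol acyltransferase, 11 to 48, while Rlbp1, a retinoid-binding protein gene, averaged 75.5 CPM in controls and 102 CPM after neomycin and Ttr, the thyroxine carrier transthyretin, 43.4 and 48.1 CPM. Best1 (4.93 and 5.22 CPM) and Rdh5 (3.76 and 4.76 CPM) lay between. Which cells the transcripts of the members came from cannot be told apart in pooled tissue.

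Neomycin samples were lower in both receptors and showed no passed change in any other tested member. Ednrb and Kit passed, both lower, which is 2 of 8 tested members (25%) against 29% of all genes tested, in either direction. At the stricter rule with a fold change above 1.5, which 2.24% of all genes passed as higher and 6.6% as lower, no member passed in either direction. The groups did not overlap for these same 2 of the 8 members, both with neomycin below, against 43.5% of all genes tested (21% with neomycin above and 22.5% below). Their 8 log2 fold changes had a median of 0.06. Of the 5 tested melanocyte-restricted members none passed in edgeR, limma-voom or DESeq2, and 1 (Slc45a2) had an unadjusted p under 0.05 in each of the 3 tools.

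**Figure D2:**
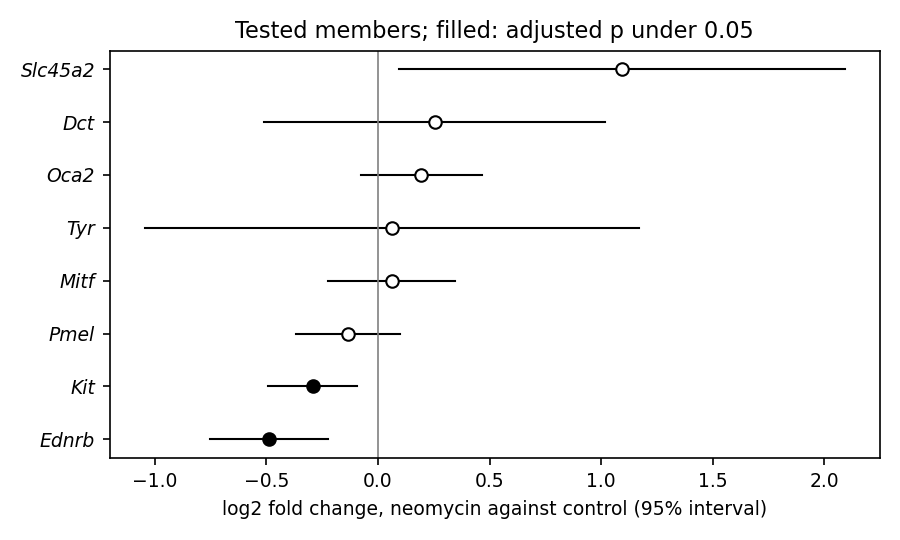
Log2 fold change of neomycin against control for the 8 tested members, from edgeR's quasi-likelihood test, with 95% confidence intervals as lines and filled points for an adjusted p under 0.05. Ednrb (-0.49) and Kit (-0.29) are filled, and the interval of Slc45a2 runs from 0.09 to 2.09.

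Ednrb, the endothelin receptor that melanoblasts need to expand and migrate, lies at chr14:103814625-103844402 on the minus strand of mm10. Its level was 29.5, 28.0 and 22.9 CPM in control samples 1, 2 and 3, and 18.3, 22.3 and 16.8 CPM in neomycin samples 1, 2 and 3. Every neomycin sample lay below every control, by a small margin between neomycin 2 and control 3. The mean fell from 26.8 ± 3.45 to 19.1 ± 2.82 CPM (SD, n = 3 each), a log2 fold change of -0.49 (SE 0.12, 95% interval -0.75 to -0.22, edgeR adjusted p = 0.0112). Without control 2 the adjusted p was 0.0521, with a log2 fold change of -0.45.

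Kit, the receptor tyrosine kinase for stem cell factor, lies at chr5:75574916-75656722 on the plus strand. Control samples had 68.5, 52.4 and 58.1 CPM, and neomycin samples had 49.3, 50.2 and 46.7 CPM. Control 1 stood highest, and the 3 neomycin samples lay close together below all controls. The mean was 59.7 ± 8.12 CPM in controls and 48.7 ± 1.83 CPM after neomycin (SD, n = 3 each), and the log2 fold change was -0.29 (SE 0.09, 95% interval -0.49 to -0.09, edgeR adjusted p = 0.0326). The call was lost when each sample's trend of expression on gene length was removed (log2 fold change -0.13, adjusted p = 0.277), and in 4 of the 6 fits that left out 1 sample. Without control 1 the log2 fold change was -0.18 (adjusted p = 0.151). It stayed near the full value without neomycin 1 (-0.30, adjusted p = 0.0515), neomycin 2 (-0.32, adjusted p = 0.0807) and neomycin 3 (-0.26, adjusted p = 0.105).

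Both receptors are also made outside the melanocyte lineage, and in pooled tissue fewer cells of a type cannot be told apart from less RNA per cell. Genes of other cell types moved between the same groups. Of 10 endothelium genes 8 (80%) were lower and none higher, among them Cdh5, the cadherin of endothelial junctions (log2 fold change -2.05, SE 0.16, edgeR adjusted p = 3.99e-06), and the adhesion molecule Pecam1 (-2.71, SE 0.26, adjusted p = 2.66e-05). The summed level of the list overlapped between the groups, at 286 to 321 CPM in controls and 269 to 319 CPM after neomycin, with Emcn, a sialomucin, at 252 and 273 CPM in the group means.

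Of 16 Schwann cell and glia genes 2 were higher and 3 lower, or 31.2% against 29% of all genes tested, which is close to the background. The neuregulin receptor Erbb3 fell by 0.90 on the log2 scale (SE 0.16, edgeR adjusted p = 0.00164) and the neurotrophin receptor Ngfr by 0.60 (SE 0.13, adjusted p = 0.00477), while the calcium-binding protein S100b rose by 0.88 (SE 0.08, adjusted p = 2.02e-05). The summed level of this list was 587 to 645 CPM in controls and 602 to 658 CPM after neomycin. Mast cells, which also carry Kit, were represented by few reads. Fcer1a and Mcpt4, an IgE receptor chain and a mast cell protease, had 0 counts in all 6 samples. Cpa3 had 1, 2 and 1 counts in controls and 0 in each neomycin sample, and Tpsb2 had 6, 5 and 8 against 0, 0 and 4. Cma1 had 0 to 9 counts per sample and Ms4a2 had 0 to 6. Of the 8 genes of that list 2 were tested, Hdc (89 to 137 counts) and Gata2, and neither passed. Gata2, a transcription factor of many tissues, made up nearly all of that list's summed level of 187 to 220 CPM in controls and 218 to 291 CPM after neomycin. The part of these cell types in the lower Kit and Ednrb levels was not tested.

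The ligands of the receptors did not pass. Kitl, which encodes stem cell factor, averaged 26.5 ± 3.42 CPM in controls and 22.5 ± 0.419 CPM after neomycin (SD, n = 3 each; log2 fold change -0.23, SE 0.10, edgeR adjusted p = 0.097). Edn3, the endothelin that acts on Ednrb in melanoblasts, averaged 8.73 ± 0.608 and 10.3 ± 1.18 CPM (0.24, SE 0.12, adjusted p = 0.162), and its neomycin samples lay above all controls. These ligands were named after their values were seen.

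Mitf, at chr6:97807052-98021349 on the plus strand, encodes the transcription factor that sets melanocyte identity. It had 8.30, 8.84 and 7.26 CPM in control samples and 9.25, 8.64 and 7.56 CPM in neomycin samples. The groups overlapped, and the lowest sample of each was number 3. The means were 8.13 ± 0.803 and 8.48 ± 0.855 CPM (SD, n = 3 each), a log2 fold change of 0.06 with a 95% interval of -0.23 to 0.35 (SE 0.13, edgeR adjusted p = 0.762). With total count scaling it was -0.0086, and the median of all genes tested moved alike, from -0.0041 to -0.073. The counts did not separate the transcripts that start at its 3 RefSeq promoters.

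Dct (dopachrome tautomerase), at chr14:118012790-118052244 on the minus strand, acts late in eumelanin synthesis and is an early marker of melanoblasts. Its level was 5.04, 13.9 and 6.00 CPM in control samples 1, 2 and 3, and 5.84, 9.34 and 14.4 CPM in neomycin samples 1, 2 and 3. The spread within each group exceeded the difference between them, with control 2 far above the other controls and the neomycin samples spread from 5.84 to 14.4 CPM. The means were 8.31 ± 4.85 and 9.86 ± 4.30 CPM (SD, n = 3 each), a log2 fold change of 0.25 (SE 0.35, 95% interval -0.51 to 1.02, edgeR adjusted p = 0.622). Without control 2 the log2 fold change was 0.84 (adjusted p = 0.0781), and without neomycin 3 it was -0.12 (adjusted p = 0.839), so its direction depended on single samples.

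Tyr, at chr7:87424771-87493512 on the minus strand, encodes tyrosinase, the rate-limiting enzyme of melanin synthesis. It was covered by 32, 35 and 11 counts in controls and by 28, 34 and 15 counts after neomycin, or 0.464, 0.671 and 0.196 CPM against 0.527, 0.576 and 0.279 CPM. Sample 3 was the lowest of each group, and the groups overlapped. The log2 fold change was 0.06 with a 95% interval of -1.05 to 1.17 (SE 0.51, edgeR adjusted p = 0.941), so changes of either sign within that interval were not excluded. With total count scaling the value was -0.012, a shift of about the size seen in the median of all genes.

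Tyrp1, at chr4:80834123-80851719 on the plus strand, encodes an enzyme that acts with tyrosinase and steadies it. It was below the filter on low counts and was not tested, with 2, 1 and 2 counts in controls and 5, 6 and 6 counts after neomycin. All neomycin samples were above all controls. Summed over samples and scaled by library size, the ratio of neomycin to control was 3.64 (exact 95% interval 1.29 to 12.6 from 17 against 5 counts). An exact two-sided permutation test over the 6 samples gave p = 0.1, the smallest that 3 against 3 samples allow. With no filter, the log2 fold change in edgeR was 1.79 (SE 1.10, adjusted p = 0.266). The interval of the ratio covers counting error only, and reads without molecular identifiers are not independent molecules.

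Pmel, at chr10:128704195-128720238 on the plus strand, forms the amyloid fibrils on which melanin is laid down. It had 14.7, 18.2 and 16.1 CPM in control samples and 14.0, 14.6 and 16.0 CPM in neomycin samples. The groups overlapped by neomycin 3, and control 2 was the highest sample. The means were 16.4 ± 1.75 and 14.9 ± 1.04 CPM (SD, n = 3 each), a log2 fold change of -0.13 (SE 0.11, 95% interval -0.37 to 0.10, edgeR adjusted p = 0.370). It passed in a single alternative, with the length correction and the replicate block together (-0.28, adjusted p = 0.0497). Its exons overlap those of Dgka by 105 bases and those of Cdk2 by 34 bases on the other strand, and reads there could belong to either gene because the strand setting of the counting is not given in the sources used here. Neither neighbour passed (Dgka -0.08, edgeR adjusted p = 0.462; Cdk2 -0.13, adjusted p = 0.324).

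Mlana, at chr19:29697824-29708634 on the plus strand, encodes MART-1, a membrane protein that works with Pmel in melanosome formation. It had 7, 24 and 5 counts in controls and 6, 2 and 18 counts after neomycin and was not tested. Control 2 and neomycin 3 stood high, and the groups overlapped. The library-scaled ratio of neomycin to control was 0.773 (exact 95% interval 0.448 to 1.32, counting error only), and the exact two-sided permutation p was 0.7.

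Oca2 and Slc45a2 encode transporters that set the ionic conditions of the melanosome. Oca2, at chr7:56239760-56536518 on the plus strand, had 8.13, 7.78 and 9.38 CPM in controls and 9.83, 10.3 and 8.82 CPM after neomycin. The groups overlapped by control 3, and the log2 fold change was 0.19 (SE 0.12, 95% interval -0.08 to 0.46, edgeR adjusted p = 0.263). Its group means were 8.43 ± 0.838 and 9.64 ± 0.741 CPM (SD, n = 3 each).

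Slc45a2, at chr15:11000721-11029233 on the plus strand, had the largest fitted log2 fold change of the 8 tested members at 24, 27 and 16 counts in controls and 38, 29 and 67 counts after neomycin. These were 0.348, 0.518 and 0.285 CPM against 0.716, 0.491 and 1.25 CPM. Neomycin 2 lay below control 2, so the groups overlapped, and neomycin 3 was the highest sample. The log2 fold change was 1.09 (SE 0.46, 95% interval 0.09 to 2.09, edgeR quasi-likelihood adjusted p = 0.0935), and without neomycin 3 it was 0.66 (adjusted p = 0.392).

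Several members differed more between pools of one group than most genes did. The ratio of the highest to the lowest control sample was 2.75 for Dct, 3.43 for Tyr, 1.82 for Slc45a2 and 5.17 for Mlana, against a median of 1.19 over the genes tested. Among neomycin samples the ratios were 2.47 for Dct, 2.06 for Tyr, 2.54 for Slc45a2 and 9.89 for Mlana, against a median of 1.17. For Dct, the one of these genes with 310 to 773 counts per sample, the ratio was above that of 96.4% of genes tested in controls and 94.8% after neomycin. By contrast Pmel, Oca2 and Mitf had ratios of 1.14 to 1.24 in both groups.

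Dct, Mlana and Slc45a2 were all highest in control 2 among controls and in neomycin 3 among neomycin samples. So was Pmel, within its narrower spread (18.2 CPM in control 2 and 16.0 CPM in neomycin 3). Tyr did not follow them in the neomycin group, where sample 3 was its lowest. The summed level of the 7 members listed as melanocyte-restricted was 28.9, 41.5 and 32.1 CPM in controls. It was 31.2, 35.4 and 41.2 CPM after neomycin, so the groups overlapped. The list name is not a result of these data, and the sum is not a measure of melanocytes. Dct made up 17.5, 33.4 and 18.7% of that sum in control samples 1, 2 and 3 and 18.7, 26.4 and 34.9% in neomycin samples 1, 2 and 3. In each group its share was highest in the sample with the highest sum. Dct is itself part of that sum, so the share and the sum are not independent.

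**Figure D3:**
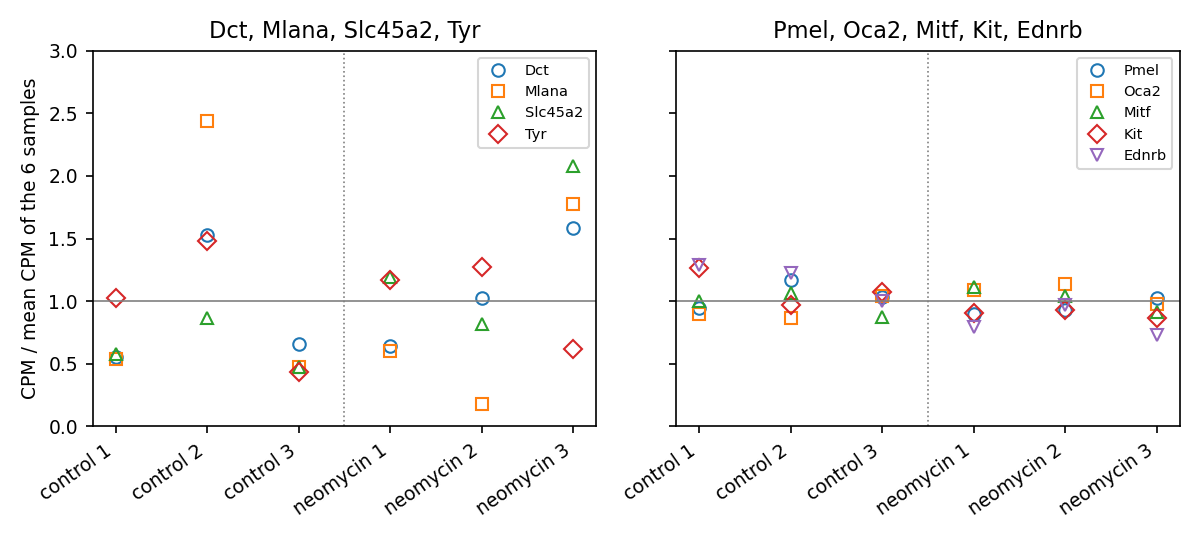
CPM of 9 members in each sample, divided by the gene's mean CPM over the 6 samples (line at 1), with the members of wide spread in the left panel and those of narrow spread in the right panel. Dct, Mlana, Slc45a2 and, within a narrower spread, Pmel are highest in control 2 among controls and in neomycin 3 among neomycin samples. Kit and Ednrb are lower in the neomycin samples.

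Over the 6 samples, which include both groups, the Pearson correlation of log2 CPM was 0.93 for Tyr with Mitf, 0.622 for Dct with Slc45a2, 0.65 for Dct with Pmel and 0.779 for Kit with Ednrb. Negative values were also seen, at -0.79 for Kit with Slc45a2, -0.753 for Ednrb with Slc45a2, -0.665 for Pmel with Oca2 and -0.664 for Dct with Kit. These values describe 6 points that share library depth and group, and Tyr rests on 11 to 35 counts per sample. The 5 genes most like the mean log2 CPM of the 5 tested restricted members, among 14030 genes with a mean of at least 1 CPM, were Zfp207 and Rbm47 (both r = 0.984), Ncl (0.973), Ret (0.971) and Msantd2 (0.966). With 6 samples and this many candidates such values are a description only, and none of the 5 genes passed between the groups.

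Few of the factors upstream of the members passed. Of 20 melanocyte development factors 17 were tested, none was higher and 2 were lower, or 11.8% of those tested, against 29% of all genes. The list's median log2 fold change was 0.05. Ece1, the protease that makes active endothelins, averaged 59.3 ± 6.65 CPM in controls and 48.5 ± 3.81 CPM after neomycin (SD, n = 3 each; -0.29, SE 0.09, edgeR adjusted p = 0.033). Tfe3, a relative of Mitf, averaged 53.0 ± 0.547 and 45.9 ± 1.28 CPM (-0.21, SE 0.07, adjusted p = 0.0352). With the length correction the values were -0.24 (adjusted p = 0.0519) for Ece1 and -0.04 (adjusted p = 0.684) for Tfe3. The count fell to 0 without control 1, without control 2 or without neomycin 2 and to 1 without neomycin 3, and it was 5 without control 3. Sox10, which activates Mitf and is also made by glia and otic epithelium, was at 355 ± 21.7 and 347 ± 1.95 CPM (-0.03, SE 0.08, adjusted p = 0.797), and Sox9, a related factor, was at 87.1 ± 6.33 and 94.1 ± 13.2 CPM (0.11, SE 0.10, adjusted p = 0.408).

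Genes of the melanosome outside the 10 members moved in both directions. Of 39 such genes 38 were tested, 7 were higher and 3 lower, which is 26.3% against 29% of all genes tested, and the median log2 fold change was -0.04. Without control 2 the count was 6 and without control 3 it was 16. Gpnmb, a relative of Pmel that lysosome-rich cells such as macrophages also make, rose from 51.4 ± 2.41 to 82.9 ± 7.22 CPM (SD, n = 3 each; 0.69, SE 0.08, edgeR adjusted p = 9.76e-05). Bloc1s1, a subunit of the BLOC-1 complex that sorts cargo to melanosomes and other lysosome-related organelles, rose by 0.55 (SE 0.08, adjusted p = 0.000499), and by 0.26 with the length correction (adjusted p = 0.00954). Cd63, a tetraspanin of late endosomes that helps sort Pmel, rose from 516 ± 57.9 to 697 ± 68.0 CPM (0.43, SE 0.10, adjusted p = 0.00873).

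Mreg (melanoregulin), an organelle transport protein, fell from 28.6 ± 1.91 to 12.7 ± 1.45 CPM (SD, n = 3 each; -1.17, SE 0.10, edgeR adjusted p = 1.35e-05). Mcoln3, a cation channel whose varitint-waddler mutation gives deafness and coat colour defects and which hair cells also make, fell from 87.5 ± 1.45 to 64.8 ± 4.31 CPM (-0.43, SE 0.07, adjusted p = 0.00118). The adaptor subunit gene Ap1g1, among the highest of the list, was at 117 ± 7.90 and 102 ± 7.74 CPM and did not pass (-0.21, SE 0.08, adjusted p = 0.0666). These organelle genes are made in many cell types. Macrophage genes, of which 7 of 12 were higher and 1 lower (summed level 118 to 145 CPM in controls, 153 to 194 CPM after neomycin), and hair cell genes (896 to 1057 CPM in controls, 313 to 372 CPM after neomycin) moved between the same samples, and their part in the values above was not tested.

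**Figure D4:**
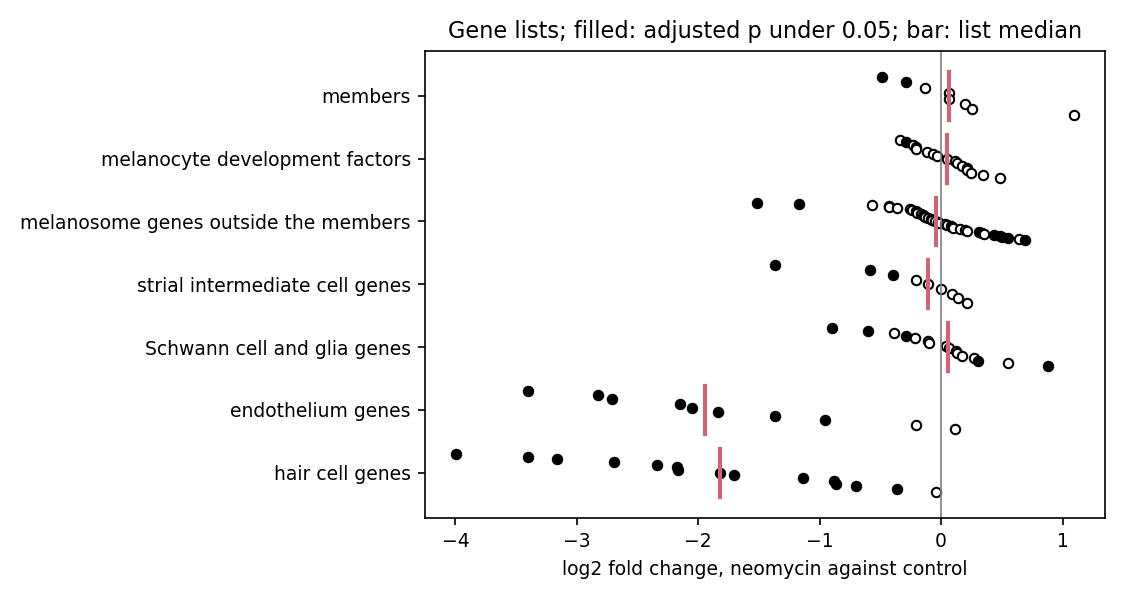
Log2 fold change of neomycin against control for each tested gene of 7 lists, 1 point per gene, filled for an adjusted p under 0.05 in edgeR, with a red bar at the median of the list. The medians of the members (0.06), development factors (0.05) and melanosome genes (-0.04) lie near 0, those of endothelium (-1.94) and hair cell genes (-1.82) far below.

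Intermediate cells, the pigment cells of the stria vascularis, were also followed by genes other than those of pigment. Of 9 such genes 3 were lower and none was higher, or 33.3% against 29% of all genes tested, which is close to the background, and the median log2 fold change was -0.11. Kcnj13, a potassium channel gene, fell from 13.7 ± 2.10 to 5.30 ± 0.713 CPM (SD, n = 3 each; -1.37, SE 0.15, edgeR adjusted p = 5.74e-05). Kcnj10, the potassium channel that sets the endocochlear potential and is also made by glia and supporting cells, fell from 45.0 ± 4.26 to 34.3 ± 5.70 CPM (-0.39, SE 0.11, adjusted p = 0.0213). Nrp2, a semaphorin and VEGF co-receptor, fell from 39.6 ± 3.27 to 26.4 ± 4.21 CPM (-0.59, SE 0.11, adjusted p = 0.00295). Gsta4 and Cd44, the genes of the list with the highest mean CPM, did not pass. Their log2 fold changes were 0.14 (edgeR adjusted p = 0.313) and -0.0044 (adjusted p = 0.978). The summed level of the list overlapped between the groups, at 460 to 473 CPM in controls and 421 to 466 CPM after neomycin. In the same samples the summed level of the 7 restricted members overlapped between the groups.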

How the data were processed

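The deposited file holds raw counts per gene symbol, made by the authors from 6 mouse libraries (Illumina mRNA-Seq Library Prep Kit). Per the submitters' processing notes and the study's methods, reads were called with CASAVA 1.8, trimmed with Trimmomatic 0.23, aligned with HISAT2 to mm10, counted with HTSeq and compared with DESeq2; the strand setting and the treatment of reads that map to several places are not given in the sources used here.

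The members and lists were chosen with earlier results of these data known. Samples were grouped by their treatment labels, 3 control and 3 neomycin. The counts were filtered (filterByExpr, minimum count 10), scaled by TMM and tested with edgeR 4.0.16 (R 4.3.3) by the quasi-likelihood test, with Benjamini-Hochberg adjustment over all 15988 genes tested. A gene passed at an adjusted p under 0.05, and the study's fold change threshold of 1.5 was applied as well. The script was tested on simulated data. Of the 24421 symbols, 4596 had no count, and 23376 matched GENCODE M21 directly and 669 by an older name for exon lengths. Alternatives were DESeq2 1.42.0, limma-voom (limma 3.58.1), other scalings and filters, a replicate block, a length correction (lowess, span 0.3) and each sample left out. Named were all members, in each list up to 4 passed genes with the smallest p and up to 2 with the highest mean CPM (the text gives these where they bear on the members), and the 5 genes most like the restricted members. Melanocyte, pathway, melanosome, strial, glial and other cell type lists were described by counts and medians without a set test.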

Additional observations from a re-analysis of the deposited data

How the results depend on the processing

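Of the 126 log2 fold changes of the 8 tested members under the alternatives, 109 kept their direction and their side of the threshold, 7 (Kit and Ednrb) lost the call, 1 (Pmel) gained it and 9 (Dct, Tyr and Mitf, none of them passed) changed sign. The number of genes that passed was 4629, 1413 with a fold change over 1.5 as well, and 2518 to 5341 with each sample left out. The number of members that passed was 2, with 0 over a fold change of 1.5, 1 after the length correction, and 1 to 2 with each sample left out. For development factors it was 2, with 1 after the length correction and 0 to 5 with each sample left out, and for melanosome genes 10, with 6 to 16. With total count scaling the log2 fold change was -0.012 for Tyr and -0.0086 for Mitf, against 0.06 for each with TMM, and the median of all genes tested moved alike, from -0.0041 to -0.073. With each sample left out it ran from -0.12 to 0.84 for Dct, from -0.28 to 0.47 for Tyr and from -0.0049 to 0.14 for Mitf. Fewer samples give a wider error in the fits that leave one out, and the cause of the other shifts was not tested.

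Same-numbered control and neomycin samples deviated from their group means with correlations of 0.165, 0.0264 and 0.0949 across genes, which are not replicates. Each neomycin sample correlated best with the control of its own number. Control 2 correlated slightly better with neomycin 3 (0.0325) than with neomycin 2. The labels give no pairing, so the main fit took none, and these values do not settle whether the numbers pair the samples. With the replicate block 6014 genes, 2 members, 4 development factors and 15 melanosome genes passed.

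Tyrp1, Mlana, Tyr and Slc45a2 had 1 to 67 counts per sample, and the part of counting error in their spread was not tested.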

Other observations

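Genes of further cell types were counted in the same fit, in which 29% of all genes tested passed. Of 9 tested strial marginal cell genes 2 were lower and none higher (22.2%), Stac (log2 fold change -0.75, edgeR adjusted p = 0.00926) and the ATPase subunit gene Atp1b2 (-0.23, adjusted p = 0.0389). Of 7 strial basal cell genes 2 were higher and none lower (28.6%), the tight junction gene Cldn11 (0.37, adjusted p = 0.00232) and Sox8 (0.68, adjusted p = 0.0327). Of 10 mesenchyme and fibrocyte genes 4 were higher, among them Otos, the fibrocyte gene otospiralin (2.69, adjusted p = 5.01e-06), and 1, Col1a1, was lower (-1.20, adjusted p = 0.000469), 50% together. Of 13 supporting cell genes 3 were higher and 3 lower (46.2%), and of 5 tested retinal pigment epithelium genes 1 was higher (20%), the retinoid-binding protein gene Rlbp1 (0.43, adjusted p = 0.00233).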
